A study of Mus musculus with 16 samples.

Results

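The respiratory chain and ATP synthase are the machinery with which mitochondria turn reduced cofactors into ATP. Complex I takes electrons from NADH and complex II from succinate, both pass them through coenzyme Q to complex III, cytochrome c carries them to complex IV, and complex V (ATP synthase) uses the resulting proton gradient. Most of the subunits are encoded in the nucleus, translated in the cytosol and imported, while a small core of every complex except complex II is encoded by mitochondrial DNA. Palmitate is a saturated fatty acid whose oxidation feeds electrons into this chain, and IL-1β is an inflammatory cytokine.

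The genes described here are the nuclear-encoded members whose symbols begin with Nduf followed by a, b, c, s or v, with Sdh, Uqcr, Cox4 to Cox8 or Atp5. Of 116 rows with such a symbol, 15 pseudogene symbols containing "-ps" were left out together with 12 rows that did not reach 10 counts in 4 libraries, and 89 genes of the 56941 in the count table remained. They were 39 genes of complex I, 4 of complex II, 8 of complex III, 13 of complex IV and 17 of complex V, which make 81 subunit genes by symbol, and 8 Ndufaf genes, which encode complex I assembly factors. Nearest to the count minimum, Cox6b2 (median 12 counts per library) and Cox6a2 (26.5) were kept, while Ndufb4c (6) and Ndufb4b (4.5) were not. All 89 also passed the expression filter of the fit and were among the 16306 genes tested.

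The cells were primary gingival fibroblasts of wild-type C57Bl6 mice aged 3 to 6 months, grown out of explants of the gum around the upper second molar and used between passages 2 and 8. There were 4 libraries in each of 4 groups: BSA alone at 200 µM as the vehicle, IL-1β at 1 ng/mL, palmitate bound to BSA at 200 µM, and palmitate with IL-1β at the same doses, with an exposure of 24 h. The libraries are numbered 1 to 16 in that order, and no source states that they came from separate cultures or animals, so the p-values measure the spread between these libraries, which may be technical. The labels give no vehicle dose for the IL-1β libraries. For other assays the study describes IL-1β added to either BSA or palmitate, and whether this held here was not settled. Median depth ran from 24980916.5 counts in genes (IL-1β) to 31264413 (palmitate with IL-1β), and palmitate library 10, with 92752515, was the deepest.

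The fibroblast label was checked against marker genes. The 12 fibroblast markers summed to 51500 ± 2430 CPM (gene counts scaled to a common library total, SD, n = 4) with BSA, 57800 ± 2620 with IL-1β, 53500 ± 2900 with palmitate and 54300 ± 3110 with both, and fibronectin (Fn1) was the most abundant of them at 19300 CPM. Of 8 epithelial markers 7 were under 1 CPM in every library. Their sum, mostly Dsp, was 4.53 ± 0.342 CPM with BSA, 4.39 ± 0.731 with IL-1β, 2.71 ± 0.196 with palmitate and 2.27 ± 0.254 with both, so it was lower in both palmitate groups, and the part of this in the results below was not tested. Endothelial, immune and muscle marker lists summed to at most 2.50, 3.63 and 2.35 CPM in any group, each as a mean of 4 libraries. In bulk RNA, fewer cells of a type and less RNA per cell cannot be told apart.

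Complex II and the assembly factor gene Ndufaf4 are the members whose values the rest of the account leans on most. Promoter sequence is therefore shown for those that the RefSeq promoter table (GRCm38.p6) holds, from 120 bases before the start of transcription to 30 bases after it. Sdha lies at chr13:74350211-74350360 (minus strand), Sdhb at chr4:140961151-140961300 (plus), Sdhd at chr9:50603820-50603969 (minus) and Ndufaf4 at chr4:24897963-24898112 (plus) in that build. Capitals mark an exact match to CCGGAAG, the core bound by ETS factors such as GABP, or to GCATGCGC, the core of the NRF1 site, on either strand.
Sdha: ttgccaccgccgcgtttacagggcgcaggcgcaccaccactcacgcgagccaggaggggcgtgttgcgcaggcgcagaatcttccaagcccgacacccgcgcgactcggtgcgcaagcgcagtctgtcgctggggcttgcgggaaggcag
Sdhb: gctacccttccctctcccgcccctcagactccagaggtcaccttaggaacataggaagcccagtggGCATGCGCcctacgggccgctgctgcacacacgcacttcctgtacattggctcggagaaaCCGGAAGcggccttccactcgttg
Sdhd: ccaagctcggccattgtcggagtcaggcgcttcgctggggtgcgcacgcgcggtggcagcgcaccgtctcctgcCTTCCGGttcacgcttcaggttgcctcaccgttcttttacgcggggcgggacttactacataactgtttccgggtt
Ndufaf4: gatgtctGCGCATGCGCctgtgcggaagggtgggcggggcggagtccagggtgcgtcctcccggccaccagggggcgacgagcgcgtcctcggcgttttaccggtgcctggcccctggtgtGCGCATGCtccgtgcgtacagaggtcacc

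Sdhb held both cores, Sdhd the ETS core and Ndufaf4 the NRF1 core. Sdha held neither in exact form, which says only that these letters are not in this window. Promoters of 74 of the 89 members were in the table, each searched over 300 bases on both strands beside 10864 tested genes that it also holds. The NRF1 core was in 12 member promoters (16.2%, against 5.26% of all), the ETS core in 18 (24.3% against 17.9%), and AAGATGGC, a YY1 core, in 10 (13.5% against 4.65%), 7 of them complex I genes. TGACGTCA, bound by CREB, was in 4 (5.41% against 3.21%) and TCAAGGTCA, bound by the estrogen-related receptors, in 2 (2.7% against 0.23%). GC content was alike, with a median of 59% in members and 61% in all. These matches describe the sequences and are not evidence of binding.

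In BSA-treated cells the members spanned a wide range of levels, compared here as CPM per kilobase of coding sequence. The median was 27.0 for complex I, 59.5 for complex II, 67.6 for complex III, 117 for complex IV, 72.5 for complex V and 8.03 for the Ndufaf genes. Atp5b, which encodes the catalytic beta subunit of ATP synthase, was the highest of its complex at 304 CPM per kb, and Atp5k, a small membrane-sector subunit, the lowest at 4.78. The highest and lowest of the others were Ndufs4 (126) and Ndufb9 (7.01) in complex I, Sdhc (73.6) and Sdhb (36.9) in complex II, Uqcrq (255) and Uqcr11 (27.3) in complex III, Cox7b (194) and Cox6b2 (1.79) in complex IV, and Ndufaf4 (34.3) and Ndufaf6 (2.06) among the assembly factors. Coding lengths ran from 156 to 2181 bp, and level per kb had a Spearman rho of -0.0769 with coding length across the 89 genes. The short subunit genes thus had low CPM and wider counting error without being low per coding length. Per kilobase of transcript some of the places above changed. Sdha (33.85) was above Sdhc (11.6), Cox4i1 (98.3) above Cox7b (46.0), Ndufs7 (43.7) above Ndufs4 (16.4) and Ndufaf7 (5.77) above Ndufaf4 (4.90). Uqcrc1 (45.5) was above Uqcrq (40.9), and Ndufb2 (0.56) was below Ndufb9 (0.897). Atp5b stayed the highest of complex V (250).

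Several subunits exist as tissue isoforms, and for Cox4, Cox6a, Cox7a and Cox8 the fibroblasts used mainly the ubiquitous ones. Cox8b, the form of heart and skeletal muscle, had 0 counts in all 16 libraries, Cox4i2, the lung form, had 0 to 4, and Cox7a1, another muscle form, had 0 to 13. Expressed as a length-scaled percentage of the pair, Cox6a2 was 5.87 ± 1.13% of Cox6a1 and Cox6a2 with BSA, 5.79 ± 0.894% with IL-1β, 6.41 ± 2.96% with palmitate and 9.26 ± 1.28% with both (SD, n = 4). The 4 libraries with both (8.11 to 10.8%) were all above the 4 with BSA (4.42 to 6.92%), at p = 0.0286 in a two-sided exact permutation test, the smallest p that 4 against 4 can give. A single full separation can only reach 0.343 after adjustment over the 12 isoform comparisons made. This design could therefore not settle the difference, which rested on 24 to 37 Cox6a2 counts per library in those groups. The share also depends on Cox6a1. Cox6a2 was at 0.91 ± 0.111 CPM with BSA and 1.16 ± 0.111 with both, and Cox6a1 at 16.9 ± 1.84 and 13.2 ± 1.55. Ndufa4l2, a hypoxia-inducible relative of Ndufa4, which is now counted as a complex IV subunit though its symbol places it here in complex I, made up 45.3 ± 13.1% of that pair with BSA, 53.7 ± 6.68% with IL-1β, 42.8 ± 2.93% with palmitate and 38.8 ± 5.50% with both, and each group overlapped BSA.

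Summed over all 81 subunits, the level was 3123 ± 144 CPM with BSA, 2956 ± 172 with IL-1β, 3155 ± 32.5 with palmitate and 3022 ± 88.9 with both (SD, n = 4). The median log2 fold change of the subunits against BSA was 0.01 for palmitate, -0.08 for IL-1β and -0.05 for both, where all tested genes had medians of 0.00, 0.00 and 0.00. With IL-1β, 70 of 81 subunits had a value below 0, where 8324 of the 16306 tested genes had. With both, 49 subunits were below 0, where 8106 of all tested genes were. With a trend with gene length taken out, the IL-1β median was -0.05, where all tested genes had -0.01. The lowest sum was IL-1β library 8 at 2716 CPM, while the other IL-1β libraries lay at 2967 to 3118, inside or near the BSA range of 2941 to 3239.

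**Figure D1:**
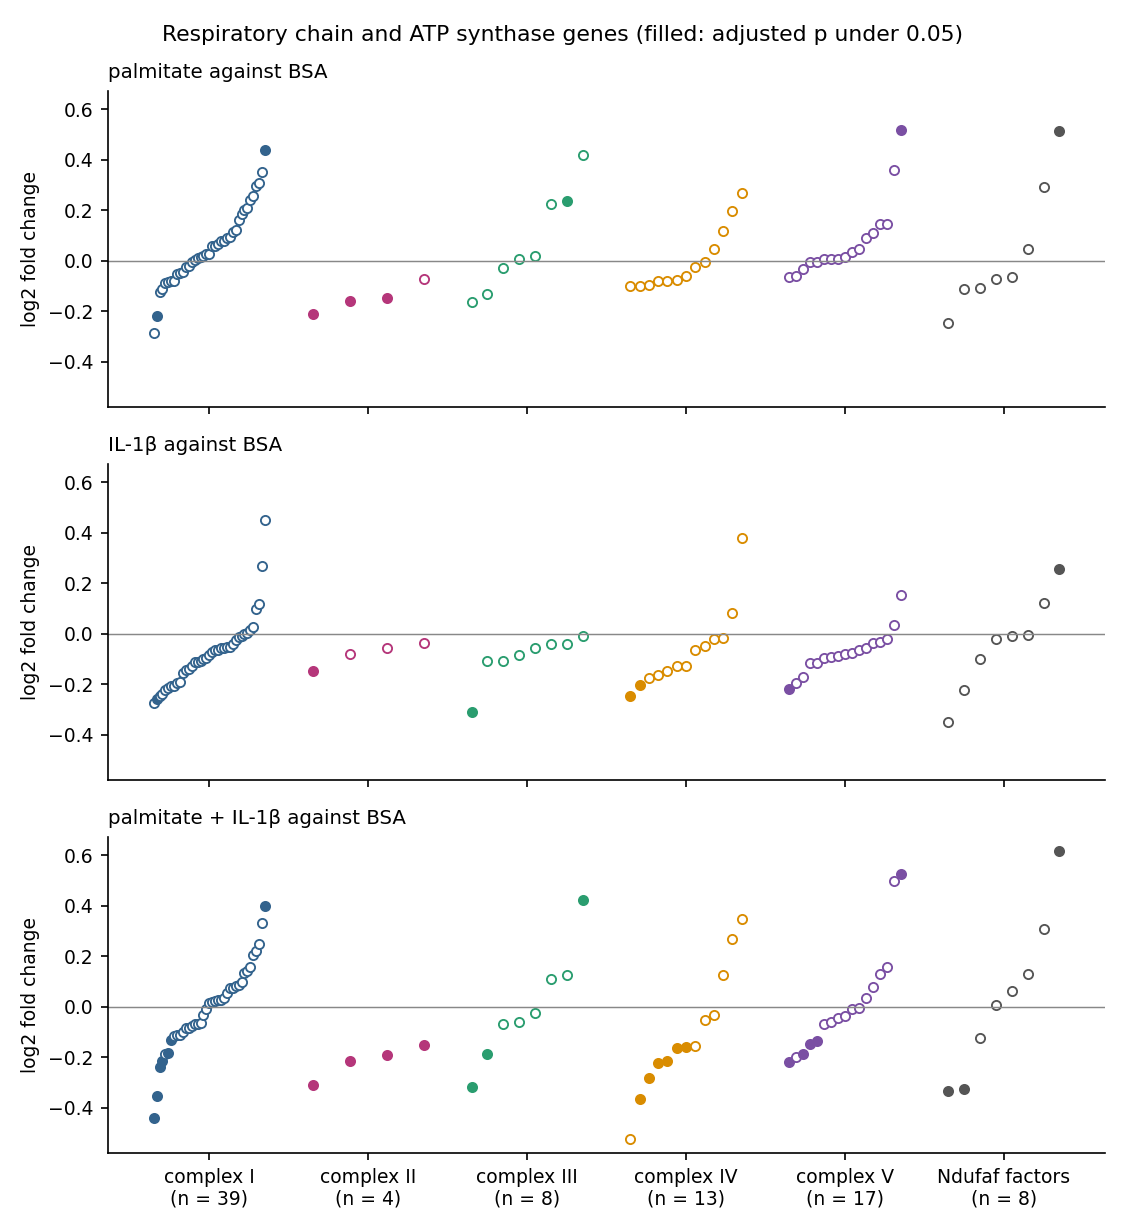
Log2 fold change against BSA of each of the 89 member genes (points), by complex and for the assembly factors, in the 3 treatments, sorted within each class, with filled points for an edgeR adjusted p under 0.05 and open points for the rest. Most points lie near 0, and the complex II genes lie below it with both agents. With palmitate and with both agents, Ndufaf4 and Atp5l stand at the upper end.

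Palmitate alone called 8 of 89 members, 4 higher and 4 lower, in the quasi-likelihood test of edgeR, with p-values adjusted by Benjamini-Hochberg over all 16306 genes. That is 8.99% of members, where 37.3% of all tested genes were called (19.8% higher and 17.5% lower). Under upper-quartile scaling, which moved the median of all genes to -0.07, the calls were tilted downwards, with 2 subunits higher and 14 lower. Leaving out 1 library gave 2 (without BSA library 2) to 6 (without BSA library 4) members higher and 2 (without library 3, 9 or 10) to 4 lower. The genes that fell were 3 of the 4 subunits of complex II and Ndufb11 of complex I. The genes that rose were Ndufaf4, Atp5l, Ndufb1 and Uqcrq. The precision of the members was close to that of other genes, with a median standard error of 0.0852 on the log2 scale against 0.0888 for all. No complex IV gene and no F1 subunit of ATP synthase was called.

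IL-1β alone called 7 of 89, 1 higher and 6 lower, which is 7.87% where 15.1% of all genes were called (10.1% higher and 4.97% lower). The 6 that fell came 1 from complex I, 1 from complex II, 1 from complex III, 2 from complex IV and 1 from complex V, and the gene that rose was Ndufaf4. The count was unstable: leaving out 1 library gave 1 to 9 calls (1 without BSA library 1 or IL-1β library 8, 3 without BSA library 4 and 4 without IL-1β library 7), fitting only the 8 libraries compared gave 3, taking out a trend with gene length left 2, and upper-quartile scaling gave 13. Palmitate with IL-1β called 28 of 89 against BSA, 4 higher and 24 lower, and leaving out 1 library gave 2 (without BSA library 3 or library 16) to 5 higher and 20 to 24 lower. That is 31.5%, below the 47.3% of all genes, and the direction was uneven: 27.0% of members were called lower where 22.5% of all genes were, and 4.49% were called higher where 24.8% were. The 3 treatments share the BSA libraries, so their values are given side by side and not as separate support. Treated and BSA libraries did not overlap for 9 of 89 members with palmitate, 2 with IL-1β and 19 with both. Of the 16306 tested genes 5871, 2877 and 6760 did not overlap, so such a separation was common among all genes with palmitate and with both.

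Complex II, succinate dehydrogenase, had 75% of its genes called with palmitate, 25% with IL-1β and 100% with both, where 37.3%, 15.1% and 47.3% of all tested genes were called, with only 4 genes behind these shares and 1 gene behind the IL-1β value. It stands in both the citric acid cycle and the chain and is wholly nuclear-encoded. Sdha carries the flavin, Sdhb the iron-sulfur clusters, and Sdhc and Sdhd anchor the enzyme in the inner membrane. In GRCm39 the genes lie at chr13:74469359-74498436 (Sdha, minus), chr4:140688502-140709380 (Sdhb, plus), chr1:170954732-170978223 (Sdhc, minus) and chr9:50507642-50515195 (Sdhd, minus), so they are on 4 different chromosomes. None of them has a near-identical copy elsewhere in the genome.

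Sdhc was at 37.7, 39.8, 35.1 and 36.6 CPM in the BSA libraries, 36.2, 35.3, 36.6 and 35.7 with IL-1β, 34.6, 33.0, 33.9 and 32.3 with palmitate, and 30.6, 33.0, 32.3 and 32.9 with both. Every palmitate library, with or without IL-1β, was below every BSA and IL-1β library. It fell by 0.16 on the log2 scale with palmitate (SE 0.05, edgeR adjusted p = 0.0103) and by 0.21 with both (SE 0.05, edgeR adjusted p = 0.000529), and the value for IL-1β alone was -0.05.

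Sdhd was at 28.8, 34.8, 32.7 and 31.0 CPM with BSA, 29.8, 31.6, 33.0 and 29.5 with IL-1β, 28.4, 27.3, 27.0 and 27.4 with palmitate, and 25.1, 26.7, 29.3 and 21.6 with both. The palmitate libraries lay below all BSA libraries, and the group given both overlapped BSA through 1 library. Sdhd fell by 0.21 with palmitate (edgeR adjusted p = 0.0161) and by 0.31 with both (edgeR adjusted p = 0.000445), the largest fall in the complex, though the palmitate call was lost without BSA library 2 (-0.17, edgeR adjusted p = 0.0677).

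Sdha was at 107, 108, 98.9 and 103 CPM with BSA, 97.3, 99.8, 94.7 and 84.2 with IL-1β, 95.4, 101, 101 and 98.1 with palmitate, and 95.1, 87.56, 94.99 and 97.0 with both. The libraries given both were all below BSA, while the palmitate and IL-1β libraries overlapped BSA. Sdha fell by 0.15 with IL-1β (edgeR adjusted p = 0.0364) and by 0.15 with both (edgeR adjusted p = 0.00933), but not past the threshold with palmitate alone. Sdhb fell by 0.15 with palmitate (SE 0.06, edgeR adjusted p = 0.0352) and by 0.19 with both (SE 0.06, edgeR adjusted p = 0.00533). The palmitate call of Sdhb was lost in 6 of the 8 fits that left out 1 library (edgeR adjusted p up to 0.0845, without library 9), and the IL-1β call of Sdha in 5 (up to 0.183, without library 8). All 4 calls with both agents held in every such fit.

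Summed over its 4 genes, complex II was at 204 ± 5.74 CPM with BSA, 190 ± 9.02 with IL-1β, 188 ± 2.34 with palmitate and 179 ± 5.69 with both (SD, n = 4). Its median log2 fold change was -0.15 with palmitate and -0.20 with both, and it stayed below 0 under every normalization tried. Its 4 assembly factor genes passed the edgeR test in 0 cases with either agent alone (0 also at an unadjusted p under 0.05), and Sdhaf2, which helps attach the flavin, fell by 0.13 with both.

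**Figure D2:**
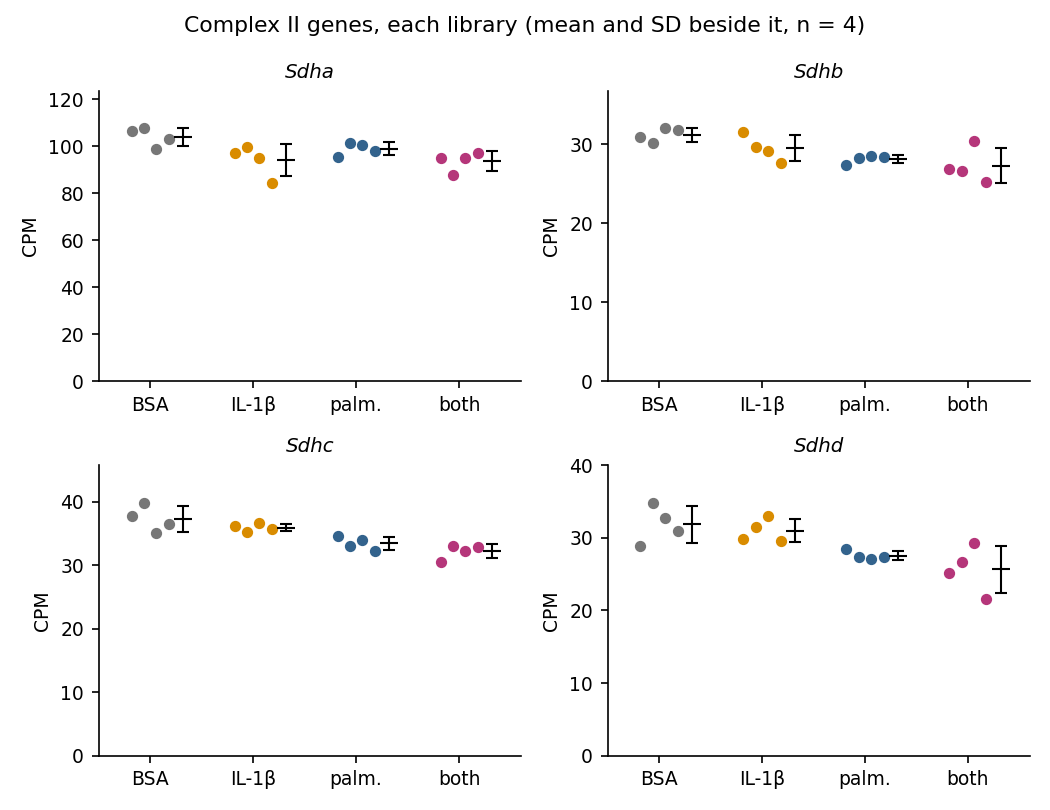
Level of each complex II gene in CPM in all 16 libraries (points), by treatment, with the group mean and SD (n = 4). All Sdhc points with palmitate, with or without IL-1β, lie at or below 34.6 CPM, and all BSA and IL-1β points at or above 35.1.

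Ndufaf4, an assembly factor of an early step in building complex I, which lies at chr4:24898079-24905001 in GRCm39, had the lowest adjusted p of all members in every comparison with BSA. It was at 16.4, 16.9, 19.0 and 18.9 CPM with BSA, 21.0, 22.3, 19.2 and 22.5 with IL-1β, 25.3, 23.9, 27.2 and 25.4 with palmitate, and 27.3, 27.4, 24.9 and 29.4 with both. Every treated library was above every BSA library, and all 8 libraries with palmitate were above all 8 without. It rose by 0.26 on the log2 scale with IL-1β (edgeR adjusted p = 0.00822), by 0.51 with palmitate (SE 0.07, edgeR adjusted p = 1.44e-07) and by 0.62 with both (SE 0.07, edgeR adjusted p = 2.33e-09). The IL-1β call was lost without BSA library 1 (0.21, edgeR adjusted p = 0.0588). The palmitate rise was also called in the presence of IL-1β, at 0.36 against IL-1β alone (edgeR adjusted p = 4.47e-05). It has no near-identical copy in the genome.

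None of the other 7 Ndufaf genes was called higher against BSA in any treatment. Of all 8 Ndufaf genes 12.5% were called with palmitate, 12.5% with IL-1β and 37.5% with both. Of all tested genes 37.3%, 15.1% and 47.3% were called. Ndufaf5, which modifies a complex I subunit, fell by 0.32 with both against BSA (edgeR adjusted p = 0.0103) and by 0.45 against IL-1β (edgeR adjusted p = 0.000919). It was at 6.07, 7.40, 7.90 and 6.397 CPM with BSA, 6.51, 7.85, 8.07 and 7.66 with IL-1β, 6.75, 6.29, 6.28 and 6.49 with palmitate, and 4.93, 5.10, 6.08 and 6.08 with both. The libraries given both lay below all IL-1β and all palmitate libraries and reached BSA only at its lowest library. Ndufaf3, which works together with Ndufaf4, fell by 0.33 with both (edgeR adjusted p = 0.0142), a call lost without library 2, 15 or 16 (edgeR adjusted p up to 0.057). Ndufaf2 rose by 0.66 with both against IL-1β alone (edgeR adjusted p = 0.00914), from 1.32 ± 0.393 to 2.06 ± 0.310 CPM (SD, n = 4), a call lost without IL-1β library 7 (0.54, edgeR adjusted p = 0.0526).

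**Figure D3:**
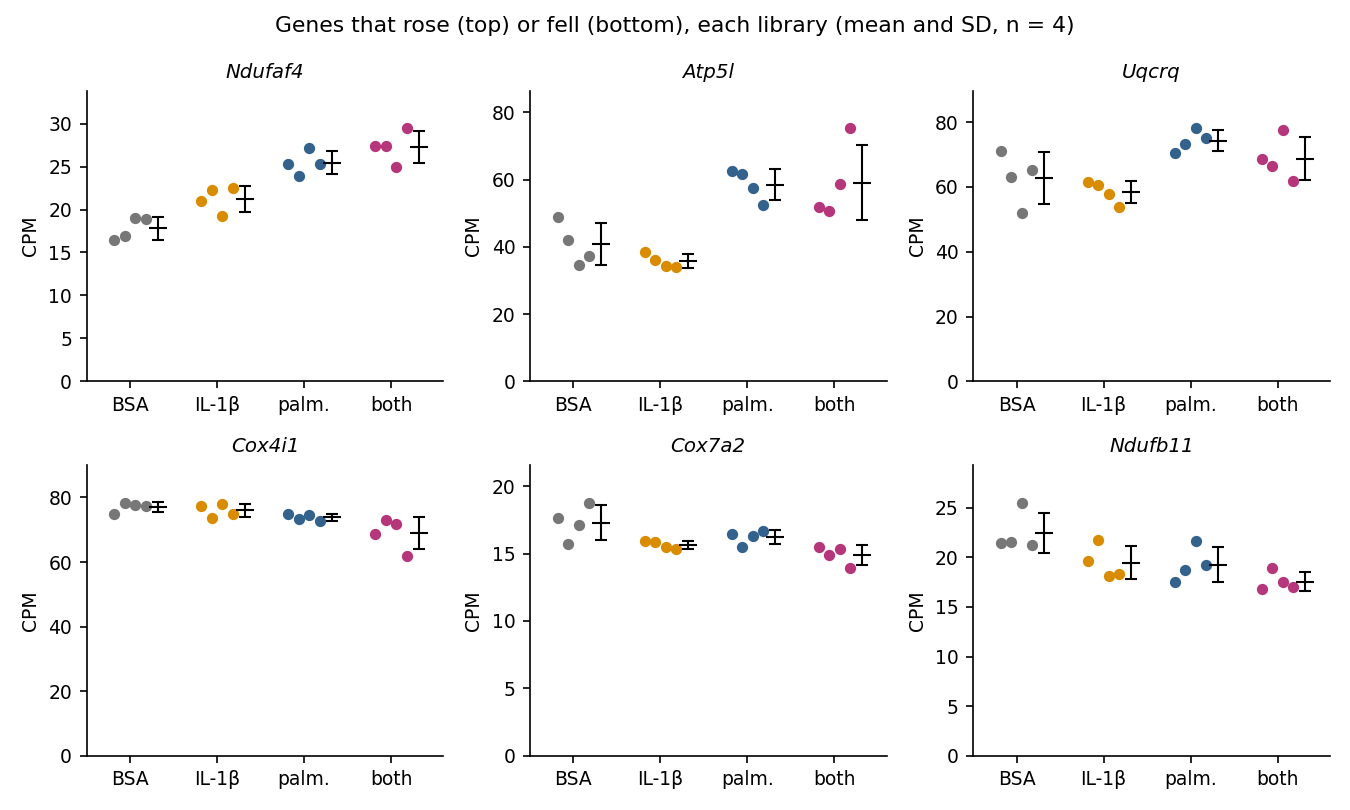
Level in CPM in all 16 libraries (points) of 6 members, Ndufaf4, Atp5l and Uqcrq, which rose with palmitate, and Cox4i1, Cox7a2 and Ndufb11, which fell with palmitate and IL-1β together, with the group mean and SD (n = 4). The Ndufaf4 points with palmitate start at 23.9 CPM and those without end at 22.5.

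In complex I, the 7 core subunits carry the flavin and iron-sulfur clusters. None was called with palmitate, 1 fell with IL-1β and 3 fell with both, or 0%, 14.3% and 42.9% where 37.3%, 15.1% and 47.3% of all tested genes were called. Ndufs1, the largest of them, was at 76.7, 71.7, 74.2 and 74.1 CPM with BSA and at 68.2, 66.4, 67.1 and 69.3 with both. The groups did not overlap, although the difference was only -0.13 on the log2 scale (SE 0.04, edgeR adjusted p = 0.0137). Ndufs8 fell by 0.26 with IL-1β (edgeR adjusted p = 0.0393) and by 0.21 with both (edgeR adjusted p = 0.0371), and the IL-1β call was lost in 6 of 8 fits that left out 1 library (edgeR adjusted p up to 0.116, without BSA library 1). Ndufv1, which holds the flavin, was called in no comparison, with a 95% interval against BSA of -0.19 to 0.04 for both agents.

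Of the 32 accessory subunits by symbol, 1 rose and 1 fell with palmitate and 1 rose and 3 fell with both. That is 6.25% and 12.5%, where 37.3% and 47.3% of all tested genes were called. The 32 include Ndufa4, now counted as a complex IV subunit, and its relative Ndufa4l2. Ndufb11 was at 21.5, 21.6, 25.5 and 21.3 CPM with BSA, 19.6, 21.8, 18.1 and 18.4 with IL-1β, 17.5, 18.7, 21.6 and 19.2 with palmitate, and 16.8, 18.9, 17.5 and 17.0 with both. The libraries given both lay below all BSA libraries, and 1 library of each single agent reached into the BSA range. Ndufb11 fell by 0.22 with palmitate (edgeR adjusted p = 0.0158) and by 0.35 with both (edgeR adjusted p = 0.000141), although a copy of its whole coding sequence exists elsewhere in the genome, and the palmitate call was lost without library 3, 9 or 10 (edgeR adjusted p up to 0.0967). Ndufb7 fell by 0.44 with both (edgeR adjusted p = 0.00984), from 6.30 ± 1.06 to 4.66 ± 0.483 CPM (SD, n = 4), a call lost without BSA library 2 (-0.33, edgeR adjusted p = 0.0587).

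Ndufb1 rose by 0.44 with palmitate (SE 0.14, edgeR adjusted p = 0.0141) and by 0.55 with both against IL-1β alone (edgeR adjusted p = 0.00371). It was at 4.499, 3.65, 4.20 and 4.86 CPM with BSA and 4.86, 5.599, 6.28 and 6.57 with palmitate, which meet at 4.86, and the palmitate call was lost without BSA library 2 (edgeR adjusted p = 0.0725). Ndufb4, whose whole coding sequence has near-identical copies, rose by 0.40 with both (edgeR adjusted p = 0.0276), a call lost in 5 of 8 fits that left out 1 library (edgeR adjusted p up to 0.0897, without BSA library 3). Ndufb8, a membrane-arm subunit whose protein is often used as a marker of complex I, was called in no comparison, at 5.65 ± 0.425 CPM with BSA and 5.05 ± 0.711, 5.27 ± 0.508 and 5.29 ± 0.464 with IL-1β, palmitate and both.

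Ndufa4 was called in no comparison. Ndufa4l2 fell by 0.57 with both against IL-1β (edgeR adjusted p = 0.0168), with 4.21, 3.48, 3.86 and 3.77 CPM in the IL-1β libraries and 2.52, 3.24, 2.12 and 2.47 in those given both, which did not overlap, and the call was lost without library 15 (edgeR adjusted p = 0.0599). Ndufc2, a membrane-arm subunit, fell by 0.28 in the same comparison (edgeR adjusted p = 0.0154) and was chosen after its values were seen.

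In complex III, the large structural subunits and the Rieske iron-sulfur protein stand beside small subunits that are not catalytic. Uqcrc1 and Uqcrc2, the core proteins, were called in no comparison. Uqcrc1 was at 75.2 ± 1.35 CPM with BSA, 74.7 ± 4.36 with IL-1β, 75.7 ± 3.46 with palmitate and 71.8 ± 1.03 with both (SD, n = 4). Uqcrfs1, the Rieske protein, fell by 0.19 with both (edgeR adjusted p = 0.029), from 50.9 ± 4.18 to 44.7 ± 3.59 CPM, a call lost without library 3, 15 or 16 (edgeR adjusted p up to 0.124).

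The small subunits went both ways. Uqcrh, the hinge protein at the cytochrome c site, fell by 0.31 with IL-1β (edgeR adjusted p = 0.0496) and by 0.32 with both (edgeR adjusted p = 0.0157), calls lost in 5 of 8 fits that left out 1 library (up to 0.136, without BSA library 2) and without BSA library 3 (0.0541). Uqcrq, a membrane subunit, was at 71.1, 63.0, 51.9 and 65.3 CPM with BSA, 61.4, 60.6, 58.0 and 53.9 with IL-1β, 70.5, 73.2, 78.03 and 75.2 with palmitate, and 68.6, 66.6, 77.7 and 61.8 with both. Every library given both was above every IL-1β library, and palmitate alone overlapped BSA at 1 library. Uqcrq rose by 0.24 with palmitate (edgeR adjusted p = 0.0246) and by 0.23 with both against IL-1β (edgeR adjusted p = 0.0319), and the first call was lost without library 2, 11 or 12 (up to 0.0655). Uqcrb rose by 0.42 with both (edgeR adjusted p = 0.0443), but its whole coding sequence has a near-identical copy and the call was lost in 6 of 8 fits that left out 1 library (edgeR adjusted p up to 0.134, without library 16).

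In complex IV, cytochrome c oxidase, the nuclear subunits surround a catalytic core made from mitochondrial DNA. With palmitate 0 of 13 were called by edgeR (0 also at an unadjusted p under 0.05 and by DESeq2, but 3 lower with upper-quartile scaling, where the class median was -0.13), with IL-1β 2 fell, and with both 6 fell and 0 rose. The last shares, 15.4% and 46.2%, were near those of all tested genes called in either direction (15.1% and 47.3%). All of these complex IV calls were lower, where 4.97% of all tested genes were called lower with IL-1β and 22.5% with both. The class median against BSA was -0.06 with palmitate, -0.13 with IL-1β and -0.16 with both, and with a trend with gene length taken out the IL-1β median was -0.05 with 0 genes called. Cox4i1, which binds nucleotides, was at 74.7, 78.4, 77.6 and 77.2 CPM with BSA, 77.3, 73.8, 77.97 and 74.9 with IL-1β, 74.9, 73.2, 74.6 and 72.7 with palmitate, and 68.6, 73.2, 71.9 and 62.0 with both. The group given both was below all BSA and all IL-1β libraries. It fell by 0.16 against BSA (SE 0.04, edgeR adjusted p = 0.00439) and by 0.14 against IL-1β (edgeR adjusted p = 0.0159), the latter lost without library 16 (0.0967).

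Cox5a, a matrix-side subunit, fell by 0.24 with IL-1β (edgeR adjusted p = 0.0466) and by 0.28 with both (edgeR adjusted p = 0.00614). It was at 19.2, 16.6, 17.9 and 17.3 CPM with BSA and at 15.2, 15.2, 15.7 and 12.3 with both, with no overlap. The IL-1β libraries, at 16.6, 15.4, 15.3 and 12.6, met BSA at 16.6, and their call was lost in 6 of 8 fits that left out 1 library (edgeR adjusted p up to 0.197, without library 8). Cox6a1, the ubiquitous form named above, fell by 0.37 with both (edgeR adjusted p = 0.00495), from 16.9 ± 1.84 to 13.2 ± 1.55 CPM. Cox7a2, likewise the ubiquitous form, was at 17.7, 15.7, 17.1 and 18.8 CPM with BSA and 15.5, 14.9, 15.4 and 13.9 with both, which did not overlap, and fell by 0.21 (edgeR adjusted p = 0.00621).

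Cox7c was 1 of the 2 members called between palmitate with IL-1β and palmitate alone, falling by 0.20 (edgeR adjusted p = 0.0375), a call lost without library 11, 12, 13 or 16 (up to 0.176). It was at 31.1, 29.1, 32.3 and 30.8 CPM with BSA, 32.5, 30.4, 28.2 and 28.1 with IL-1β, 28.95, 29.2, 30 and 33.4 with palmitate, and 26.0, 27.4, 28.5 and 23.7 with both, so the last group lay below all BSA and palmitate libraries and overlapped IL-1β. Cox7b was higher with both than with IL-1β alone, by 0.19 (edgeR adjusted p = 0.0142), a call lost without library 7, 8 or 16 (up to 0.0576). Both genes have near-identical copies over their whole coding sequence, and reads that map to several places were not counted. Cox7a2l, which joins complexes III and IV into supercomplexes, and Cox8a were called in no comparison.

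In complex V, the F1 head makes ATP and the membrane sector carries the protons. Atp5a1 and Atp5b, the alpha and beta subunits of the catalytic head, were called in no comparison. Atp5b was at 482 ± 30.04 CPM with BSA, 471 ± 24.9 with IL-1β, 481 ± 9.72 with palmitate and 470 ± 15.6 with both (SD, n = 4). Its 95% interval for palmitate was -0.10 to 0.09 on the log2 scale and for both agents -0.13 to 0.06. Atp5a1 was at 402 ± 13.7, 370 ± 17.9, 404 ± 6.54 and 389 ± 12.3 CPM in the same order. All 4 IL-1β libraries were below all 4 BSA libraries for Atp5a1, but the difference of -0.12 did not pass the threshold (edgeR adjusted p = 0.0565).

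Of the F1 subunits 2 of 5 fell with both agents, or 40% where 47.3% of all tested genes were called, the gamma subunit Atp5c1, the rotor stalk with copies of 72% of its coding sequence, by 0.19 (edgeR adjusted p = 0.00292) and the delta subunit Atp5d by 0.15 (edgeR adjusted p = 0.0111), the latter chosen after its values were seen. Atp5c1 was also the second member lower with both than with palmitate alone, by 0.15 (edgeR adjusted p = 0.0484), a call lost in 6 of 8 fits that left out 1 library (up to 0.193, without library 16). Subunit c forms the rotor ring in the membrane and is encoded by Atp5g1, Atp5g2 and Atp5g3, which give the same mature protein. Only Atp5g3 of these 3 was called, falling by 0.22 with both (edgeR adjusted p = 0.00227), with 30.2, 32.3, 31.2 and 28.9 CPM with BSA and 25.3, 25.3, 28.9 and 25.9 with both, which meet at 28.9. The 95% intervals for Atp5g1 (-0.23 to 0.09) and Atp5g2 (-0.46 to 0.06) include a fall of that size, and the difference between the 3 genes was not tested. Near-identical copies span the whole coding sequence of Atp5g1 and Atp5g2, while Atp5g3 has none. Reads that map to several places were not counted.

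Atp5l (now Atp5mg), the small membrane subunit g, went the other way. It was at 49.0, 42.2, 34.6 and 37.4 CPM with BSA, 38.6, 36.2, 34.2 and 34.1 with IL-1β, 62.4, 61.6, 57.5 and 52.3 with palmitate, and 51.9, 50.8, 58.6 and 75.2 with both. All 8 libraries with palmitate were above all 8 without. It rose by 0.52 with palmitate (SE 0.13, edgeR adjusted p = 0.00624), by 0.53 with both (edgeR adjusted p = 0.00416) and by 0.72 with both against IL-1β (edgeR adjusted p = 0.000707). Near-identical sequence at 9 other loci covers 87.6% of its coding sequence. Its reads that also map elsewhere were not counted, so the value is uncertain. Atp5h, a stalk subunit with copies of its whole coding sequence, fell by 0.22 with IL-1β (edgeR adjusted p = 0.0349, lost in 5 of 8 fits that left out 1 library and up to 0.136), and Atpif1, which encodes the inhibitor of ATP synthase and falls outside the symbol rule, was called in no comparison with BSA, at 73.8 ± 10.2 CPM with BSA.

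A near-identical copy (at least 95% identity) was found elsewhere in the genome for 26 of the 89 members, and for 17 of these it spans the whole coding sequence. With both agents against BSA, 7 of these 26 were called, 3 higher and 4 lower, and of the 63 members with no copy 21 were called, 1 higher (Ndufaf4) and 20 lower. Of all tested genes 47.3% were called in this comparison, 24.8% higher and 22.5% lower.

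The palmitate effect was measured in separate libraries, without IL-1β (palmitate against BSA) and with it (both against IL-1β). In the second comparison 18 of 89 members were called, 9 higher and 9 lower, which is 20.2% where 35.0% of all genes were called (18.9% higher and 16.1% lower). The even split depended on the scaling: upper-quartile normalization gave 3 subunits higher and 11 lower, where the fit reported here gave 7 and 8. Leaving out 1 library gave 4 to 14 members higher (14 without library 5, 5 without library 7 or 15, and 4 without library 8) and 6 to 13 lower (6 without library 16). Over the 89 genes, whose points share the same 4 sets of libraries, Pearson's r between the log2 fold changes was 0.675 and Spearman's rho 0.717, where all tested genes gave 0.841 and 0.727, and 70 of 89 had the same sign. Atp5l, Ndufb1 and Ndufaf4 were at the upper end in both and Sdhd among the lower values in both. Between palmitate with IL-1β and palmitate alone 2 of 89 members were called, both lower, or 2.25% where 9.81% of all genes were called (5.71% higher and 4.10% lower).

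**Figure D4:**
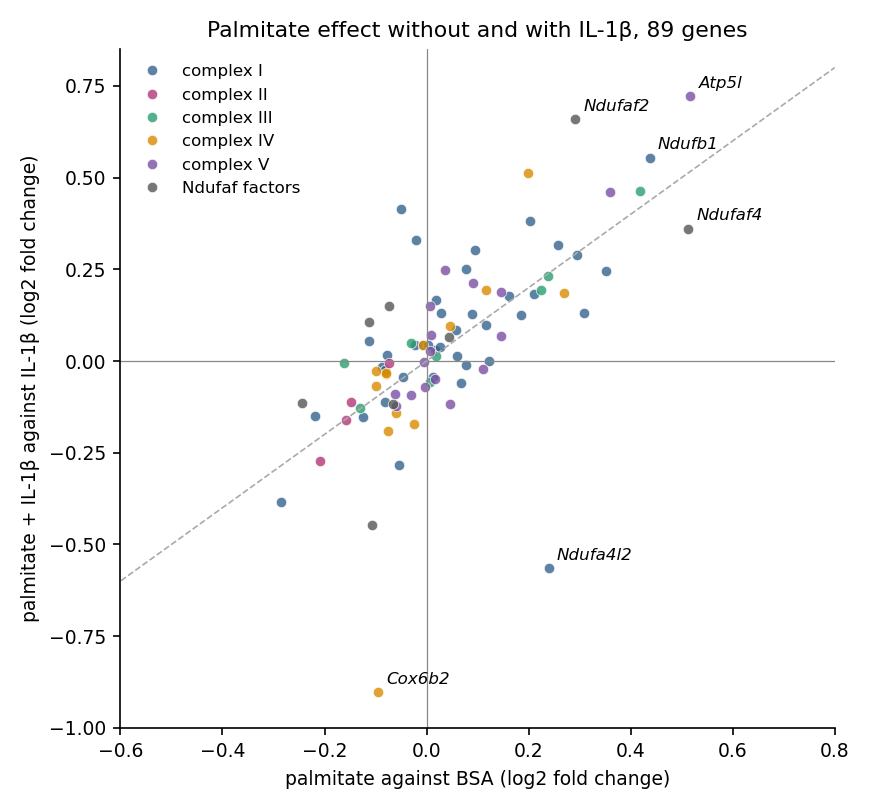
Log2 fold change of each of the 89 members for palmitate without IL-1β (horizontal axis) and with IL-1β (vertical axis), 1 point per gene, coloured by complex, with a dashed line where both values are equal. The points follow a rising band, with Pearson's r of 0.675, Ndufaf4 and Atp5l lie in the upper right, and Ndufa4l2 (-0.57 with IL-1β) and the sparsely counted Cox6b2 (-0.90, not called) lie away from the band.

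The interaction term, which asks whether the palmitate effect differed with and without IL-1β, was called for 0 of 89 members by edgeR, where 1.99% of all genes were called. DESeq2 also called 0 members. At an unadjusted p under 0.05 there were 2 of 89 members, where 1669 of the 16306 tested genes were. The 2 members were Ndufa4l2 (-0.80, SE 0.26, edgeR adjusted p = 0.138) and Ndufaf5 (-0.34, SE 0.14, edgeR adjusted p = 0.369).

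Genes that build or serve the chain were set beside the subunits. Of 16 genes for regulators of mitochondrial gene expression, 6 rose and 2 fell with palmitate, 1 rose with IL-1β and 7 rose and 1 fell with both. That is 50%, 6.25% and 50% of the list, where 37.3%, 15.1% and 47.3% of all tested genes were called. Pprc1, a coactivator of the PGC-1 family, was at 33.0, 33.5, 33.7 and 33.5 CPM with BSA, 39.8, 40.4, 41.7 and 45.1 with IL-1β, 44.0, 44.6, 44.5 and 46.9 with palmitate, and 49.8, 54.9, 50.3 and 54.3 with both. No BSA library overlapped a treated one, and the group given both was above all others. Pprc1 rose by 0.43 with palmitate (edgeR adjusted p = 1.33e-08), 0.32 with IL-1β (edgeR adjusted p = 1.4e-05) and 0.65 with both (edgeR adjusted p = 9.74e-13).

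Among the other regulators, Twnk, the mitochondrial DNA helicase, rose by 0.29 with palmitate and 0.53 with both, Tfam, which packages mitochondrial DNA, by 0.22 and 0.35, and Tfb2m, a transcription factor of mitochondrial DNA, by 0.41 and 0.37. These 3 were chosen after their values were seen, and each had an edgeR adjusted p of 0.00114 or lower. Esrra, the estrogen-related receptor alpha, fell by 0.23 with palmitate (edgeR adjusted p = 0.0279) and by 0.26 with both (edgeR adjusted p = 0.0101). Polg2, the accessory subunit of the mitochondrial DNA polymerase, fell by 0.73 with palmitate (edgeR adjusted p = 0.00102), at a low level of 2.26 ± 0.276 CPM with BSA against 1.34 ± 0.208. With both agents Esrra was the only regulator called lower, so Polg2 was not, and no regulator had a value below -0.35.

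**Figure D5:**
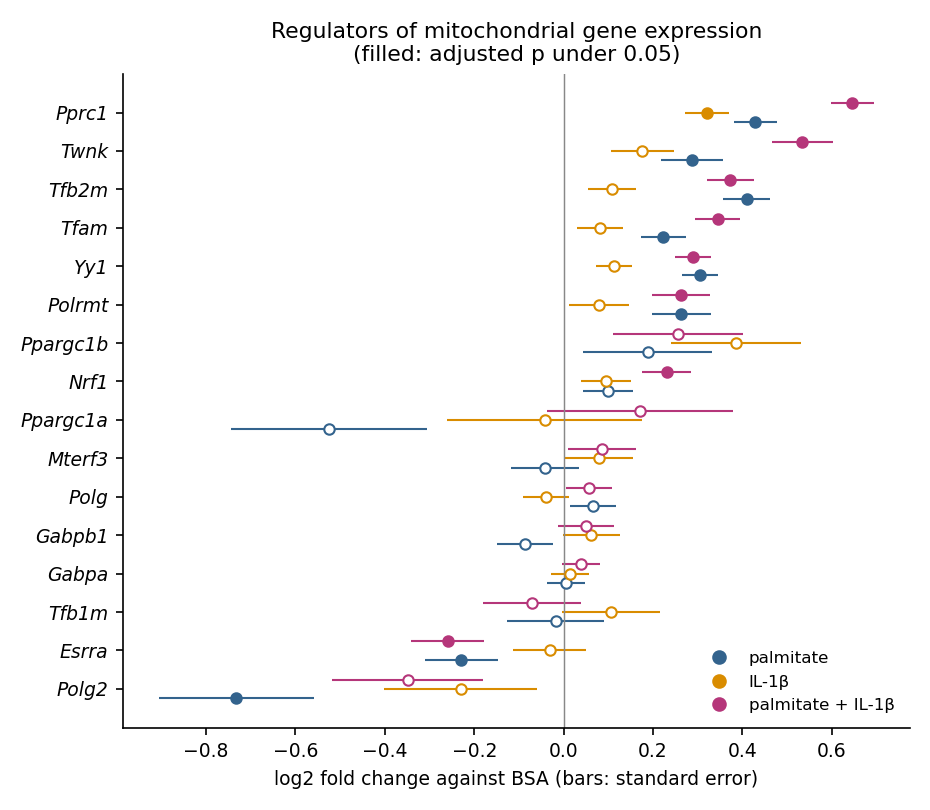
Log2 fold change against BSA of the 16 regulators of mitochondrial gene expression in the 3 treatments (points, filled where the edgeR adjusted p was under 0.05, with bars for the standard error). Pprc1 lies above 0 in all 3 treatments, reaching 0.65 with both agents, and Polg2 is the lowest with palmitate at -0.73.

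Of 25 complex IV assembly genes, 6 rose and 2 fell with palmitate, 1 rose with IL-1β and 6 rose and 4 fell with both. These are 32%, 4% and 40%, each below the share of all tested genes (37.3%, 15.1% and 47.3%). Higd1a, a hypoxia-inducible protein that binds complex IV, rose by 0.48 with palmitate (edgeR adjusted p = 0.000108) and 0.41 with both (edgeR adjusted p = 0.000508), and its palmitate libraries (9.18 to 9.76 CPM) lay above all BSA libraries (5.95 to 8.23). Surf1, needed early in assembly, fell by 0.35 with palmitate (edgeR adjusted p = 0.000233), Cox19, a copper-handling protein, fell by 0.43 with both (edgeR adjusted p = 0.00069), and Lrpprc, which stabilises mitochondrial mRNAs, rose by 0.18 with IL-1β (edgeR adjusted p = 0.00197).

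The electron carriers were covered by 14 genes, of which 1 rose and 2 fell with palmitate, 1 fell with IL-1β, and 2 rose and 2 fell with both. The shares of 21.4%, 7.14% and 28.6% were again below those of all tested genes. Cycs, cytochrome c itself, rose by 0.50 with palmitate (edgeR adjusted p = 0.00865) and 0.48 with both (edgeR adjusted p = 0.00847). It was at 19.9, 21.1, 16.0 and 23.9 CPM with BSA, 24.6, 22.1, 18.3 and 15.9 with IL-1β, 26.8, 31.1, 28.9 and 26.8 with palmitate, and 25.1, 27.0, 29.97 and 31.3 with both, and all 8 libraries with palmitate were above all 8 without. Coq10a, a coenzyme Q-binding protein, fell by 0.54 with palmitate (edgeR adjusted p = 3.13e-06), and Coq8a, a kinase-like protein of coenzyme Q synthesis, fell by 0.33 with IL-1β (edgeR adjusted p = 0.0171) and by 0.45 with both (edgeR adjusted p = 0.000261).

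The remaining assembly lists had 0% to 25% of their genes called against BSA in any treatment, where all tested genes had 37.3%, 15.1% and 47.3%. Among 8 further complex I assembly genes Tmem126b fell by 0.20 with palmitate and by 0.17 with both, and Tmem186 rose by 0.21 with both. Of 9 complex III assembly genes 0 were called against BSA by edgeR (at an unadjusted p under 0.05, 2 with palmitate and 0 with IL-1β or both), and of 5 for ATP synthase Atpaf1, a chaperone of the F1 head, fell by 0.27 with palmitate and 0.21 with both.

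The proteins that translate the subunits were set beside them as well. Of 78 mitochondrial ribosome genes 10 rose and 2 fell with palmitate, 0 rose and 3 fell with IL-1β, and 16 rose and 6 fell with both. Of 82 cytosolic ribosome genes 7 rose and 1 fell, 0 rose and 5 fell, and 9 rose and 7 fell. The mitochondrial ribosome thus had 15.4%, 3.85% and 28.2% of its genes called and the cytosolic ribosome 9.76%, 6.1% and 19.5%, where all tested genes had 37.3%, 15.1% and 47.3%. The subunits that mitochondrial DNA encodes, 12 genes tested, had a median log2 fold change of 0.30 with palmitate, 0.03 with IL-1β and 0.19 with both, with 1, 0 and 1 genes called and a median standard error of 0.22 to 0.23 per gene. All mitochondrial genes together took 12.2 to 13.4% of counts with BSA, 11.4 to 14.0% with IL-1β, 11.9 to 13.2% with palmitate and 10.7 to 11.5% with both, so their share was not higher with palmitate and was below every BSA library with both. Among the single genes, mt-Co1 fell by 0.27 with both (edgeR adjusted p = 1.05e-05). The other call was mt-Co2, which rose by 0.50 with palmitate (edgeR adjusted p = 0.0331) from only 1.39 ± 0.184 CPM, a level low enough beside the 6709 CPM of mt-Co1 to leave it uncertain.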

How the data were processed

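Total RNA of 16 libraries was made into libraries from 540 ng with a stranded total RNA kit per the labels, while the study's methods describe oligo(dT) priming. Which was used was not settled, and it bears on how RNA with short or no poly(A) tails was counted, such as that of mitochondrial DNA. The submitters' processing notes name Trimmomatic 0.39, STAR 2.7.10a and HTSeq 2.0.9 on GRCm39. The deposited values are raw counts per gene, made by the authors, with reads that map to several places not counted. Summary rows (median 19% of a column) were left out. Counts were fitted with edgeR 4.0.16 (TMM, filterByExpr, glmQLFit and glmQLFTest) over all 16 libraries in R 4.3.3, with Benjamini-Hochberg adjustment over 16306 genes and a threshold of 0.05. The common biological coefficient of variation was 6.08%, and TMM factors ran from 0.9702 to 1.042. Replicate pairs differed beyond sampling noise (chi-square per degree of freedom 2.53 to 17.6 over 24 pairs). CPM use TMM-scaled library sizes. Coding lengths and positions come from GENCODE vM39, and copies were sought with BLAST+ 2.17.0. The fit was tested on simulated data, and the outcome is not given here.

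The members and gene lists were chosen with earlier results of these data known. The genes named are a list of textbook subunits, the largest called rise and fall per class and comparison, interaction calls, the highest and lowest level per class, and the largest called rise and fall of each other list. One item is not reported here.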

Additional observations from a re-analysis of the deposited data

Results flagged for a closer look

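Among 216 groups of 4 libraries (the members covered by the naming rule, and the sums of the complexes and of the Ndufaf genes, in each treatment), 12 held a library that stood apart from the other 3 by Dixon's test, where chance flags about 1 in 20 groups. BSA library 2 was high in Ndufb7 (7.88 CPM) and low in Ndufs8 (10.6), Ndufaf6 (1.62) and Cox7a2l (62.7). BSA library 3 was high in Ndufb11 (25.5) and low in Ndufv1 (34.0). IL-1β library 8 was low in Ndufb9 (1.95) and in the complex II sum (177). Palmitate library 12 was low in Atp5c1 (114) and high in Uqcrfs1 (48.4). Of the libraries given both agents, library 15 was high in Atp5g3 (28.9) and library 16 low in Cox5a (12.3). The cause was not tested.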

How the results depend on the processing

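No paired analysis was possible because the libraries are numbered 1 to 16 and no number is shared between groups. Against 8, 7, 28, 18, 2 and 0 members called (palmitate, IL-1β and both against BSA, both against IL-1β, both against palmitate, interaction), DESeq2 1.42.0 called 9, 8, 28, 18, 3 and 0. Upper-quartile normalization turned the median of the subunits with palmitate to -0.058, where all genes had -0.072, and gave 18 calls, of which 2 subunits were higher and 14 lower. It gave 13 calls with IL-1β and a median of -0.129 with both, where 1 subunit was higher and 33 lower. With no expression filter there were 13 calls with palmitate, 4 between both and palmitate, and 1 in the interaction. Taking out a trend with length left 2 with IL-1β. Fitting only the 8 libraries compared gave 3 with IL-1β and 6 between both and palmitate. The cause of these changes was not tested.

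With 1 library left out, the calls ranged from 6 to 10 for palmitate, 22 to 27 for both against BSA, 12 to 21 against IL-1β and 0 to 1 for the interaction (1 without BSA library 3). For IL-1β they ranged from 1 to 9, with 1 without BSA library 1 or IL-1β library 8, 3 without BSA library 4 and 4 without IL-1β library 7. Between both and palmitate they ranged from 0 to 5, with 0 without libraries 11, 13 or 16, 1 without 9, 12 or 14, and 5 without 15. The median of the subunits ranged from -0.0067 to 0.0336 for palmitate, -0.128 to -0.051 for IL-1β, -0.0683 to -0.0256 for both against BSA, -0.0064 to 0.0609 for both against IL-1β, -0.0918 to -0.0565 for both against palmitate and -0.0195 to 0.0595 for the interaction. No called member covered by the naming rule changed direction under the other normalizations, filters or tools, while some members that were not called did, and the other gene lists were not recomputed. The counts for IL-1β and for both against palmitate moved most with single libraries in proportion to their size, and differences under about 0.1 on the log2 scale were near the standard errors.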
